A study of Homo sapiens with 6 samples.

Results

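The Hippo pathway core was read on the arrays through 10 genes, YAP1, WWTR1, LATS1, LATS2, STK3, STK4, SAV1, NF2, WWC1 and AMOT. They were chosen by name, with earlier results of these data known. The platform annotation assigns 45 probe sets to these symbols, and all of them were taken, from 54613 tested after the control probe sets had been set aside. All 10 genes had at least 1, of 19775 named genes in all. The arrays measured MCF-10A, a line of human mammary epithelial cells, immortalized but not transformed, whose proliferation depends on epidermal growth factor. One group of 3 samples was infected with a retrovirus encoding myc-tagged human CRB3, a transmembrane protein of the apical Crumbs polarity complex. The other group of 3 samples carried the empty pNG vector. The labels name pNG for the control group only. The methods describe CRB3 in pNG and its transfer to another retroviral vector, so whether both groups had the same vector is not stated. Both groups were selected after infection, grown in the same complete growth medium and sampled as proliferating monolayers at 70% confluence, so every value describes subconfluent, growing cells of one line. The methods give the RNA isolation and the experiment as done in triplicate. They do not state whether each replicate had its own infection or culture. If not, a p-value would cover no more than the spread among these 6 samples, possibly a technical one.

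The Hippo pathway is a kinase cascade that restrains growth and reports on cell contact and polarity. The kinases STK3 and STK4, held by the scaffold SAV1, phosphorylate LATS1 and LATS2, which in turn phosphorylate the transcriptional coactivators YAP1 and WWTR1 (also called TAZ) and thereby keep them out of the nucleus, where they would act with TEAD transcription factors. NF2 (merlin), WWC1 (KIBRA) and AMOT (angiomotin) bring the cascade to cell junctions or bind the coactivators there, and in epithelia the Crumbs complex is a known organizer of this junctional pool. The pathway is regulated mainly by phosphorylation and localization, which an RNA measurement does not read.

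The sequence immediately upstream of the annotated start was taken from RefSeq (GRCh38.p14) for 9 of the 10 genes. The windows of LATS2, WWC1 and YAP1 are printed because they held a match to a searched motif. Each is given as 250 bases before the start, read 5′ to 3′ on the strand of the gene. In CRB3-expressing cells the transcripts of LATS2 and WWC1 were higher and that of YAP1 was not called. Capitals mark the letters CAGGTG, an E-box that SNAI and ZEB repressors can bind, and in YAP1 the letters GGAATG, the core of the TEAD motif.
LATS2, chr13:21061587-21061836, minus strand: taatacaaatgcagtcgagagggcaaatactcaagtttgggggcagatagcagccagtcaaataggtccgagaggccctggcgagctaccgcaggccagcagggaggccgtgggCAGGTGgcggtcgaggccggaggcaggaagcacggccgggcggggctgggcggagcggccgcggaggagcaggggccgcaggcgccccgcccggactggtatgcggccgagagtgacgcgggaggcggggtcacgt
WWC1, chr5:168291395-168291644, plus strand: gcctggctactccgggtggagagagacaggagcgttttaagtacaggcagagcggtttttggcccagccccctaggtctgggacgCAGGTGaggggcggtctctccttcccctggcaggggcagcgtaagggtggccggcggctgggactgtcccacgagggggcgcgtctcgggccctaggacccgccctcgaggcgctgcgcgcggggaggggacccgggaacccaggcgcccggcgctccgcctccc
YAP1, chr11:102110197-102110446, plus strand: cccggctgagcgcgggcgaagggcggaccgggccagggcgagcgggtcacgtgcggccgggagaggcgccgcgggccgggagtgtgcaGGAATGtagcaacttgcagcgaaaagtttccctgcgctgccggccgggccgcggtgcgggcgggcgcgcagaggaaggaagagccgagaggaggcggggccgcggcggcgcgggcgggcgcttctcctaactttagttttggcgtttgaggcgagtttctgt
Counted back from the start, the E-box began at position -136 in LATS2 and at -165 in WWC1, and the TEAD motif at -162 in YAP1. All these windows were rich in G and C, at 69.6% in LATS2, 72.4% in WWC1 and 72.0% in YAP1, against a median of 58.0% over 27305 tabulated promoters. The window was searched on both strands for 9 of the 10 genes, with STK3 left out, for the letters CAGGTG and for the letters GGAATG, which do not overlap each other. CAGGTG was present in 2 of these 9 and in 17.5% of all tabulated promoters, and GGAATG in 1 of 9 and in 11.9% of all. The windows printed are those with a match. The windows of SAV1 and NF2, whose transcripts were higher by smaller amounts, held neither motif, and nor did those of WWTR1, LATS1, STK4 and AMOT. Whether a match goes with a change in the transcript was not tested. The tabulated start of WWTR1, LATS1 and NF2 lies inside the annotated span of the gene, so their windows among the 9 are not those before the outermost start. A match is a run of letters and not a bound site.

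In CRB3-expressing cells, LATS2, STK3 and WWC1 were higher by about 1.6-fold in their brightest probe sets. SAV1 and NF2 were higher by smaller amounts, past the adjusted p alone. Their brightest probe sets did not pass it with any 1 array left out. NF2 passed in 1 of its 8 probe sets, at an adjusted p of 0.0478 from limma. YAP1, WWTR1, LATS1, STK4 and AMOT did not pass the test in any probe set. As means over all probe sets of a gene the changes of LATS2, STK3 and WWC1 were smaller, 0.41, 0.53 and 0.30 on the log2 scale, past the adjusted p but under the fold threshold, and with an ordinary pooled variance LATS2 and WWC1 were not called. Values are log2 expression values after Robust Multichip Average normalization by the authors, and a change is the mean of the CRB3-expressing arrays minus the mean of the vector control arrays. A probe set was called when its adjusted p from limma was under 0.05, with Benjamini-Hochberg adjustment over all 54613 probe sets, and its fold change was above 1.5. Of the 45 probe sets, 4 were called higher (8.89%, against 0.948% of all probe sets) and 0 were called lower (against 0.363%). By the adjusted p alone, 10 were higher (22.2%, against 2.24%) and 0 were lower (against 1.39%). Every member probe set past the adjusted p was thus higher. With 1 array left out in turn, the 10 became 6 to 7 (6 without CRB3-expressing replicate 1, vector control replicate 2 or vector control replicate 3), and with an ordinary pooled variance they became 2 and the 4 called became 1. The groups did not overlap in 20 probe sets that were higher (44.4%, against 11.1%) and in 4 that were lower (8.89%, against 10.7%), so the share that was lower without overlap lay near the background. Probe sets of 1 gene read the same transcript and are not independent of each other.

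When a gene was represented by its brightest probe set, the one with the highest mean over the 6 arrays, 3 of the 10 genes were called higher (30.0%, against 1.43% of all genes) and 0 lower (against 0.465%). By the adjusted p alone 5 genes were higher (against 3.37%) and 0 were lower (against 1.77%). With any 1 array left out, 3 genes were higher by the adjusted p, since SAV1 and NF2 dropped out each time. Since 9 of the 10 genes had a mean of at least 6 in that probe set, the background was also taken over the 12307 genes with such a mean, of which 2.1% were called higher and 0.683% lower, and 4.84% were higher and 2.62% lower by the adjusted p alone. The median change of the 10 genes was 0.16, against 0.0066 over all genes. Detection calls were not used here. A mean log2 value under 6 only marks dim probe sets, of which the members had 13, and none of these passed the adjusted p.

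**Figure D1:**
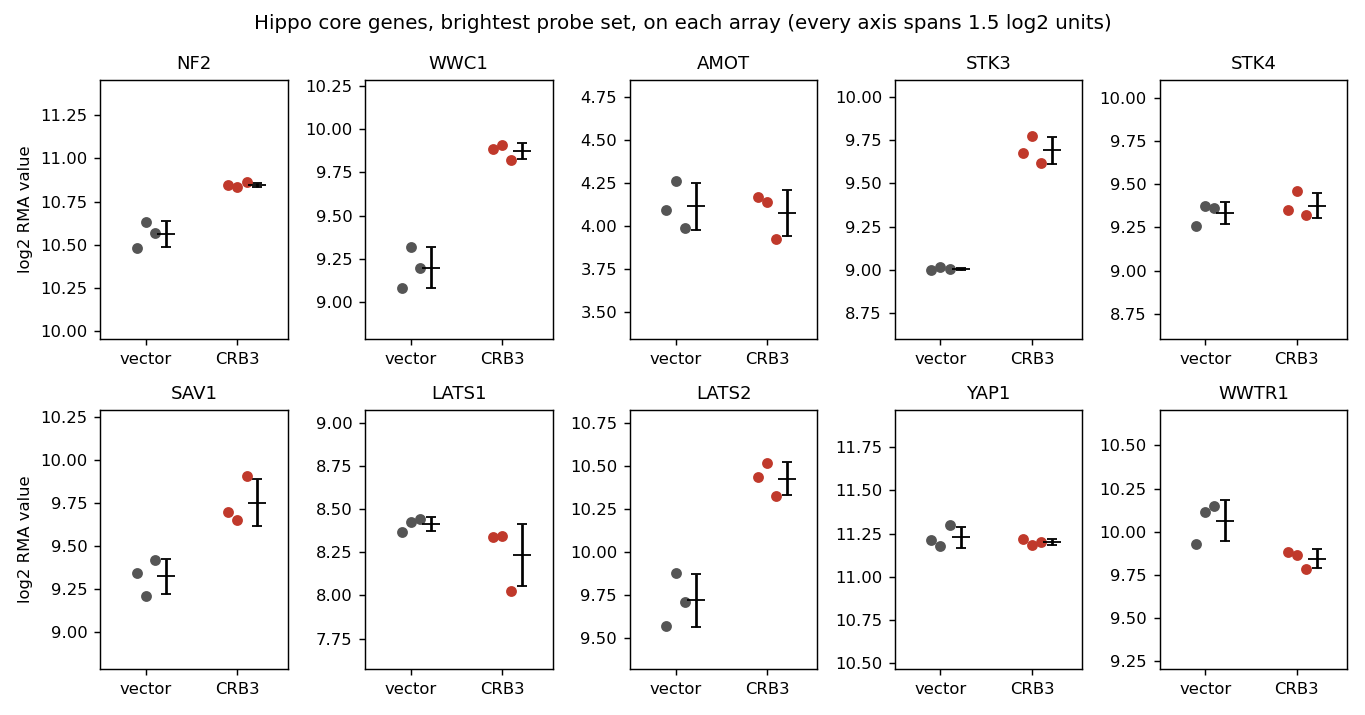
Log2 value of each of the 10 genes in its brightest probe set on every array, with the vector control arrays in grey, the CRB3-expressing arrays in red, and the mean ± SD of each group (n = 3) in black; every vertical axis spans the same range. The groups stand apart upward for NF2, WWC1, STK3, SAV1 and LATS2 and overlap for YAP1, STK4 and AMOT.

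CRB3 itself was read first as a check of the labels. Its only probe set was at 12.16, 12.00 and 12.19 on the CRB3-expressing arrays and at 7.90, 7.59 and 7.85 on the vector control arrays. The 2 groups were far apart, as the labels state. The arrays were otherwise alike, with medians between 5.85 and 5.88 and Pearson's r across probe sets of 0.997 to 0.998 within groups and 0.994 to 0.996 across groups. The hybridization controls averaged 10.98 on vector control replicate 1, against 10.52 to 10.72 on the other arrays.

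The identity of the culture was read from marker genes. Mammary epithelial markers were bright in both groups, such as KRT5, a basal keratin, at 13.58 ± 0.060 (SD, n = 3) and 13.62 ± 0.032 (SD, n = 3) with CRB3 and with the vector. The list was not level between groups, since 3 of its 8 measured genes (KRT14, KRT8 and CDH1) were called higher and its mean lay at 12.08 to 12.17 on the CRB3-expressing arrays, against 11.52 to 11.53 on the vector control arrays. The leukocyte list moved up in CSF1R alone, which was called higher of 4 measured genes, with list means of 6.18 to 6.40 against 6.11 to 6.18, while the defining marker PTPRC was dim at 4.19 and 4.16. CSF1R lost its call without CRB3-expressing replicate 3, vector control replicate 1 or vector control replicate 3, with changes of 0.55 to 0.68 over the arrays left out in turn. The fibroblast list had DCN called lower of 5 measured genes, with list means of 5.84 to 5.97 against 5.996 to 6.11, and the endothelial list had none called of 5, at 5.36 to 5.46 against 5.31 to 5.39. The part of these markers in the changes of the Hippo genes was not tested. In these bulk samples fewer cells of a type and less RNA per cell cannot be told apart.

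The junctional activators came first in the cascade. NF2 encodes merlin, a FERM-domain scaffold that recruits LATS kinases to the membrane, on chromosome 22 at 29603556 to 29698600 (GRCh38.p14). Its brightest probe set, 218915_at, was at 10.84, 10.83 and 10.86 with CRB3 and at 10.48, 10.63 and 10.57 with the vector. Every CRB3-expressing array was above every vector control array, but the gap was small, 0.28 on the log2 scale, or 1.22-fold (SE 0.064, limma's adjusted p = 0.0478). All 7 other NF2 probe sets were also above 0, between 0.080 and 0.30, and none of these passed the adjusted p. Leaving out any 1 of the 6 arrays raised the adjusted p of 218915_at to between 0.0634 and 0.155.

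WWC1 encodes KIBRA, a scaffold with WW domains that binds NF2 and promotes LATS activation, on chromosome 5 at 168291645 to 168472303. The brightest of its 8 probe sets, 213085_s_at, was at 9.89, 9.91 and 9.82 on the CRB3-expressing arrays. On the vector control arrays it was at 9.08, 9.32 and 9.20. The groups did not overlap, and the lowest CRB3-expressing array exceeded the highest vector control array by a wide margin relative to the spread within groups. WWC1 rose by 0.68 on the log2 scale, or 1.60-fold (SE 0.075, limma's adjusted p = 0.00122). The second probe set, 216074_x_at, was also called, at 8.98, 9.04 and 9.21 against 8.52, 8.39 and 8.50, with a change of 0.61 (adjusted p = 0.00265), and fell under the fold threshold without CRB3-expressing replicate 3 or vector control replicate 2 (lowest change 0.54). The next brightest, 241950_at, passed the adjusted p with a change of 0.52 (adjusted p = 0.0019) but stayed under the fold threshold. Both called probe sets carry an _s or _x suffix in their names, and no WWC1 probe set without such a suffix was called. The 5 dimmer probe sets had changes of 0.35, 0.11, 0.14, -0.066 and 0.061 and did not pass, so the probe sets of WWC1 were not uniform, and the size of its rise depends on which of them is read.

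AMOT, which encodes a junctional adaptor that binds YAP1, is on the X chromosome at 112774877 to 112840831. It had 1 probe set, 209521_s_at, with a mean of only 4.10, among the dim ones. The values were 4.17, 4.14 and 3.92 with CRB3 and 4.09, 4.26 and 3.99 with the vector. The groups overlapped, and the change of -0.037 had a 95% interval of -0.25 to 0.18 (adjusted p = 0.892 from limma).

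In the kinase layer, the paralogs STK3 and STK4 encode the Hippo kinases themselves. STK3, on chromosome 8, was at 9.68, 9.78 and 9.62 in its brighter probe set, 204068_at, on the CRB3-expressing arrays, and at 8.9997, 9.013 and 9.005 on the vector control arrays. The vector control values were almost identical and the CRB3-expressing values all lay well above them. STK3 rose by 0.69 on the log2 scale, or 1.61-fold (SE 0.064, limma's adjusted p = 0.000446), the smallest adjusted p among the 45 probe sets. The other STK3 probe set, 211078_s_at, was dim, with values of 6.05, 5.72 and 5.87 against 5.49, 5.46 and 5.60. These groups did not overlap either, and the change of 0.37 did not pass the adjusted p (0.0717 from limma).

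STK4, on chromosome 20 at 44966512 to 45080021, was at 9.35, 9.46 and 9.32 in 225364_at with CRB3 and at 9.26, 9.37 and 9.36 with the vector. The groups overlapped. The change was 0.044 (SE 0.068, adjusted p = 0.808 from limma), with a 95% interval of -0.11 to 0.20, which lies wholly under the fold threshold of 0.58 on the log2 scale. The 6 other STK4 probe sets had changes from -0.38 to 0.27 and none passed the adjusted p. Both of these extremes were dim probe sets with means of 4.21 and 4.37, and 4 of the 7 STK4 probe sets were dim.

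SAV1, the WW-domain scaffold that joins the Hippo kinases to the LATS kinases, is on chromosome 14 at 50633580 to 50668306. Its brightest probe set, 218276_s_at, was at 9.70, 9.65 and 9.91 with CRB3 and at 9.34, 9.21 and 9.42 with the vector. The next, 222573_s_at, was at 9.47, 9.60 and 9.51 against 9.16, 8.98 and 9.03. In both, every CRB3-expressing array was above every vector control array. Their changes were 0.43 (SE 0.087, adjusted p = 0.0324 from limma) and 0.47 (SE 0.072, adjusted p = 0.00758), past the adjusted p and under the fold threshold. The 3 other probe sets had changes of 0.28, 0.31 and 0.37 and did not pass, so all 5 SAV1 probe sets were above 0. When any 1 array was left out, the adjusted p of the brightest probe set was 0.0501 to 0.101, whereas 222573_s_at passed each time.

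LATS2 had the largest change among the 45 probe sets. It encodes a kinase that phosphorylates YAP1 and WWTR1, it is itself a known transcriptional target of YAP1, and it lies on chromosome 13 at 20973036 to 21061586, with the promoter shown above. Its brightest probe set, 227013_at, was at 10.44, 10.51 and 10.32 on the CRB3-expressing arrays and at 9.57, 9.88 and 9.71 on the vector control arrays. The groups did not overlap. LATS2 rose by 0.70 on the log2 scale, or 1.63-fold (SE 0.091, limma's adjusted p = 0.00285). The next, 223380_s_at, was at 9.12, 9.12 and 9.14 against 8.83, 8.57 and 8.60, a change of 0.46 (adjusted p = 0.0148). Next came 223379_s_at, with a change of 0.32 (adjusted p = 0.0258), and the dim 230348_at, with one of 0.18 (adjusted p = 0.199). With any 1 array left out, 227013_at stayed called each time (changes of 0.63 to 0.78), while the adjusted p of 223380_s_at rose as far as 0.0598 and passed only without vector control replicate 1, and that of 223379_s_at was 0.0564 to 0.0969. In all 4 probe sets of LATS2 the groups did not overlap, and the size of the change was smaller in the dimmer ones.

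LATS1, its paralog, is on chromosome 6 at 149658153 to 149718101 and had no probe set past the adjusted p. The brightest, 227772_at, was at 8.34, 8.34 and 8.03 with CRB3 and at 8.37, 8.42 and 8.44 with the vector. The groups did not overlap, with the CRB3-expressing arrays lower, but replicates 1 and 2 lay close to the lowest vector control array and replicate 3 stood well below them. The change was -0.18 (SE 0.092, adjusted p = 0.394 from limma), with a 95% interval of -0.38 to 0.032. The other 3 LATS1 probe sets had changes of -0.15, -0.095 and 0.021.

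**Figure D2:**
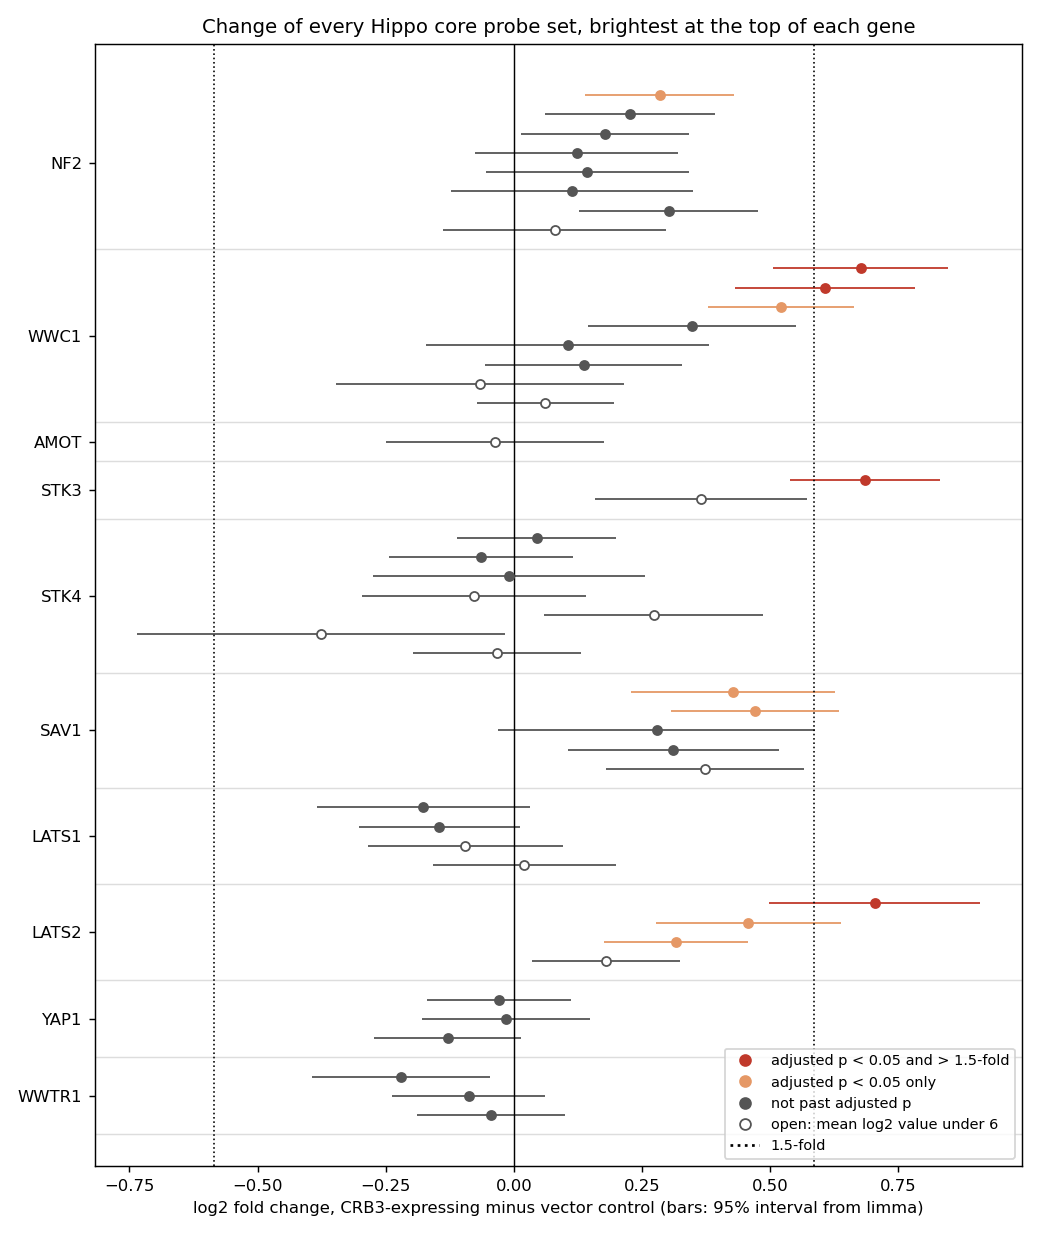
Log2 fold change of each of the 45 probe sets, CRB3-expressing minus vector control, with its 95% interval from limma; probe sets are grouped by gene with the brightest at the top, open circles are dim probe sets, and dotted lines mark the 1.5-fold threshold. All probe sets past the adjusted p (10, in colour) lie to the right of 0 and belong to NF2, WWC1, STK3, SAV1 and LATS2.

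YAP1 and WWTR1 are the coactivators that the cascade restrains. YAP1, on chromosome 11 at 102110447 to 102233424, was bright in all 3 probe sets. The brightest, 224894_at, was at 11.22, 11.18 and 11.20 with CRB3 and at 11.21, 11.18 and 11.30 with the vector, and the groups overlapped. Its change was -0.028 (SE 0.062, adjusted p = 0.873 from limma), and the 95% interval of -0.17 to 0.11 excludes a change of the size of the fold threshold in either direction. The other 2 had changes of -0.015 and -0.13, and in the latter, 213342_at, the CRB3-expressing arrays (10.17, 10.20 and 10.26) were all below the vector control arrays (10.40, 10.29 and 10.34) without passing the test (adjusted p = 0.361).

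WWTR1, on chromosome 3 at 149517235 to 149724788, was at 9.88, 9.87 and 9.78 in 202133_at with CRB3 and at 9.93, 10.12 and 10.15 with the vector. The groups did not overlap, and the CRB3-expressing arrays were the lower ones. The change of -0.22 (SE 0.076) did not pass the adjusted p (0.190 from limma), although its unadjusted p was 0.0184. The 2 other WWTR1 probe sets had changes of -0.088 and -0.044, and their groups overlapped. Thus all 6 probe sets of the coactivators had changes below 0, none past the test.

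The changes of the members of a paralog pair were set against each other. For each pair the difference of the log2 values of the 2 brightest probe sets was taken on every array, and the groups were compared by an exact permutation test, two-sided, which with 20 assignments of 3 against 3 arrays cannot give a p under 0.1. The change of LATS2 exceeded that of LATS1 by 0.88, with array differences of 2.10, 2.17 and 2.30 with CRB3 and 1.204, 1.46 and 1.27 with the vector. The groups of differences did not overlap. The change of STK3 exceeded that of STK4 by 0.64, with differences of 0.33, 0.32 and 0.30 against -0.26, -0.36 and -0.36, again without overlap. For YAP1 against WWTR1 the gap was 0.19, with differences of 1.34, 1.32 and 1.42 against 1.28, 1.06 and 1.15. All 3 pairs gave the smallest exact p of 0.1 (0.1 after Benjamini-Hochberg adjustment over the 3 pairs), which is not past the threshold. With the mean over all probe sets of a gene in place of the brightest, the gaps were 0.51 for LATS2 against LATS1, 0.56 for STK3 against STK4 and 0.06 for YAP1 against WWTR1 (exact p of 0.1, 0.1 and 0.5).

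How bright a probe set was and how far it moved can be read together. The 10 probe sets past the adjusted p had means between 7.29 and 10.70. Members that did not pass lay both inside this range, as all WWTR1 probe sets did, and outside it. Across members the SD within a group ran from 0.0069 to 0.31 with a median of 0.090, against a median of 0.086 over all probe sets, so the members were measured about as tightly as the array in general.

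**Figure D3:**
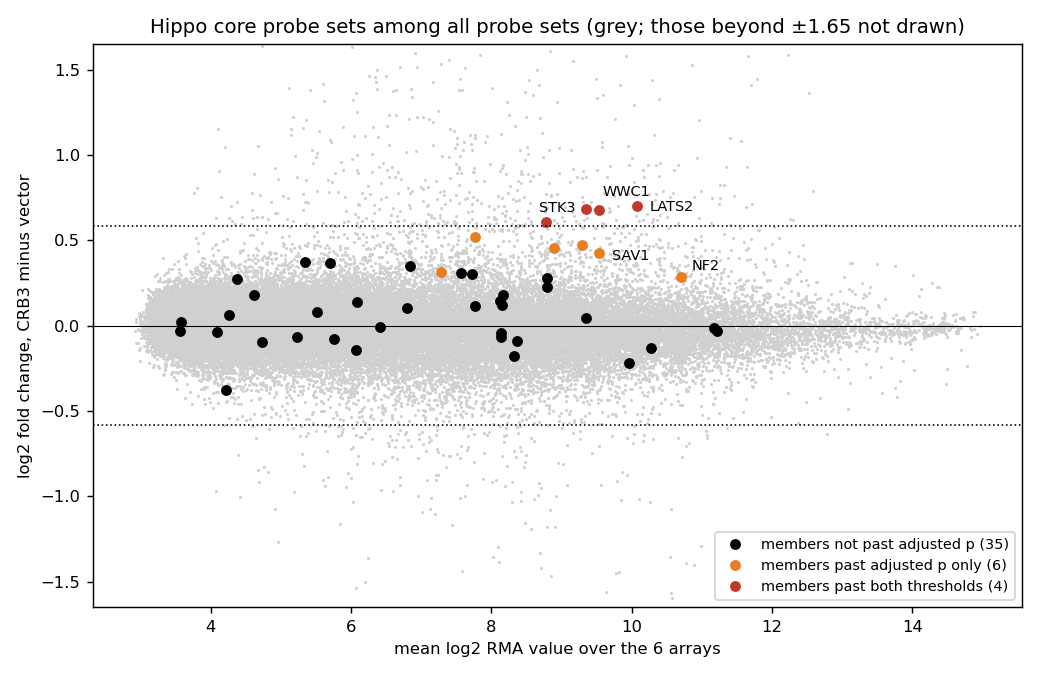
Log2 fold change against the mean log2 value over the 6 arrays for all probe sets (grey, with 76 beyond the vertical limits not drawn) and for the 45 Hippo probe sets, in red where both thresholds were passed (4), in orange for the adjusted p alone (6) and in black otherwise (35); dotted lines mark the 1.5-fold threshold. The red points all lie above the upper line, and no member passes on the lower side.

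Outside the core, 62 other genes of the pathway were measured, in 4 lists. Of these, 2 were called higher and 1 lower, and by the adjusted p alone 7 were higher and 2 lower, with a median change of -0.012. The called counts are to be read against 1.43% higher and 0.465% lower over all genes. Those by the adjusted p alone are to be read against 3.37% and 1.77%.

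Of 8 genes that are MOB1 coactivators or paralogs of the core genes, 1 was called. AMOTL2, an angiomotin paralog that is also a known YAP1 target, was at 10.85, 10.72 and 10.87 with CRB3 and at 9.84, 9.90 and 9.88 with the vector. The groups were far apart, and the change was 0.94 (SE 0.066, adjusted p = 7.75e-05 from limma, 1.92-fold). STK38, a kinase related to LATS that is named here after its value was seen, passed the adjusted p alone with a change of 0.30 (adjusted p = 0.0404), which no fit with 1 array left out kept (0.0563 to 0.133). The other 6 had changes from -0.24 to -0.0019 and none passed.

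The 21 measured upstream activators of the cassette held 1 called gene. TNIK, a kinase of the MAP4K family, was at 6.39, 6.15 and 6.03 with CRB3 and at 6.86, 6.97 and 6.79 with the vector. It fell by 0.69 on the log2 scale (SE 0.099, adjusted p = 0.00544 from limma), and its second probe set fell by 0.94 and was also called, while the 2 dimmest did not pass. By the adjusted p alone, and named after their values were seen, FRMD6 (a FERM protein upstream of the Hippo kinases, 0.46) and FAT4 (an atypical cadherin, 0.40) were higher and RASSF6 (a binding partner of the Hippo kinases, -0.39) was lower. FRMD6 passed with each array left out. FAT4 passed only without vector control replicate 2, with adjusted p up to 0.0704. The brightest RASSF6 probe set passed only without CRB3-expressing replicate 1 or vector control replicate 3, with adjusted p up to 0.0632. Its second probe set, a dim one with a mean of 4.58, had a change of -0.44 (adjusted p = 0.00504 from limma). That probe set passed with each array left out (0.0153 to 0.0297). The dimmest RASSF6 probe set had a change of 0.12 and did not pass. The activators did not share a direction.

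Among 15 measured inhibitors of the kinase cassette 0 were called. AJUBA and WTIP, LIM-domain proteins that bind and inhibit LATS kinases, passed the adjusted p alone, with changes of 0.40 (adjusted p = 0.00697) and 0.32 (adjusted p = 0.0273). The brightest AJUBA probe set passed with each array left out, while its other probe sets did not pass on all arrays (adjusted p of 0.0633 to 0.0784 from limma). WTIP passed in no fit with 1 array left out (0.0533 to 0.101). Of 18 measured partners and turnover factors of YAP1 and WWTR1, 1 was called, the junction scaffold TJP1 with a change of 0.59 (SE 0.066, adjusted p = 0.00124 from limma). That value lies just above the fold threshold of 0.58, and its second probe set gave 0.60. The call was lost without CRB3-expressing replicate 1 or vector control replicate 3, at changes down to 0.56.

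**Figure D4:**
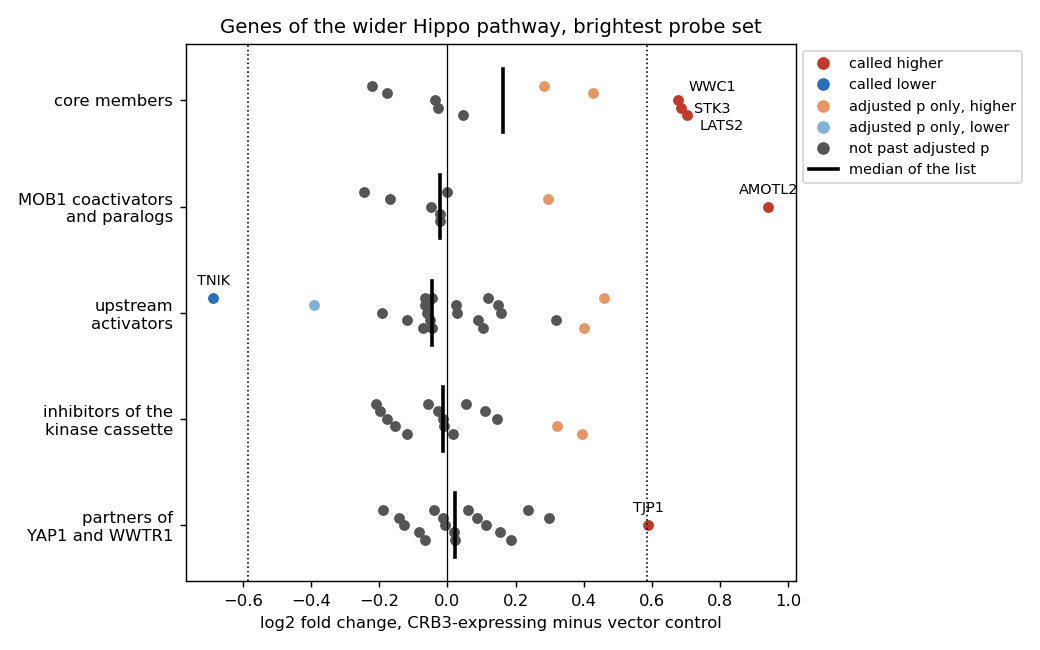
Log2 fold change of the 10 core genes and of 62 other genes of the pathway in 4 lists, 1 point per gene in its brightest probe set, with black bars for list medians and dotted lines for the 1.5-fold threshold. The core list has 3 called genes and a median of 0.16, and the other lists have medians between -0.046 and 0.021 with AMOTL2, TNIK and TJP1 called.

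Downstream, the list of TEAD factors and known YAP1 and WWTR1 targets had 7 of 25 measured genes called higher and 0 lower, against 1.43% and 0.465% of all genes. By the adjusted p alone 10 were higher and 0 lower, against 3.37% and 1.77%, and the median change was 0.18. One of the 7, the tissue factor gene F3, named after its value was seen, was at 0.59 and lost its call without CRB3-expressing replicate 1 or vector control replicate 2 (lowest change 0.54). LATS2 and AMOTL2 are in this list too. The largest change was that of CCDC80, an extracellular matrix protein, at 9.11 ± 0.080 (SD, n = 3) with CRB3 and 6.69 ± 0.044 (SD, n = 3) with the vector, a rise of 2.42 on the log2 scale (SE 0.067, limma's adjusted p = 3.37e-07). Its other 2 probe sets were also called, with smaller changes of 0.99 and 0.76. IGFBP3, a secreted binding protein of insulin-like growth factors, rose by 1.38 (SE 0.088) and CCN1, a matricellular protein, by 0.91 (SE 0.066). The targets did not move as a block, since CCN2, the close relative of CCN1 that is named here after its value was seen, had a change of -0.033 (SE 0.11, adjusted p = 0.923). Of the TEAD factors, also named after their values were seen, TEAD1 passed the adjusted p alone with 0.41 (adjusted p = 0.0101) in its brightest probe set, and its other probe sets did not pass. TEAD2, TEAD3 and TEAD4 had changes of -0.25, -0.019 and 0.14 that did not pass.

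The Crumbs and PAR complex, which holds the overexpressed protein, had 2 of 12 genes called higher and 1 lower, against 1.43% and 0.465% of all genes. CRB3 is 1 of these by construction, with a log2 fold change of 4.33. PALS1, the direct partner of the CRB3 tail, was higher by 0.95 (SE 0.061, adjusted p = 5.09e-05 from limma), and PARD6G, a PAR6 family adaptor, fell by 0.71 (SE 0.088, adjusted p = 0.00228) in its brightest probe set, while its other 2 were not called.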

How the data were processed

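RNA of the 6 samples was hybridized to Affymetrix Human Genome U133 Plus 2.0 arrays. Background correction and normalization by Robust Multichip Average were done by the authors, whose deposited log2 values were used unchanged. Versions are not given in the sources used here. The 62 control probe sets were left out. The contrast of CRB3-expressing and vector control arrays was fitted over 54613 probe sets by lmFit and eBayes (limma 3.58.1, R 4.3.3), at the thresholds of the study's methods. Gene names came from the platform annotation (41091 probe sets with 1 symbol, 1801 with several, 11721 with none), and RefSeq (GRCh38.p14) gave the same symbol for all 10 members. Permutation tests enumerated all assignments of the arrays, and the adjustment over the pairs used SciPy 1.17.1. The number of arrays limits the precision.

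The members and gene lists were chosen with earlier results of these data known. All members were named, with up to 4 called genes of each other list, otherwise up to 2 past the adjusted p alone. Steps were tested on simulated data. Alternatives were the replicate number as a block, other variance models, median-centring, quantile normalization, a filter on dim probe sets, array weights, other fold thresholds, other probe sets and leaving out each array. No sign was seen that replicate numbers pair the samples, which the labels and methods do not state. STK3 promoter sequence is not analysed here.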

Additional observations from a re-analysis of the deposited data

How the results depend on the processing

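Of 276 values recomputed under the alternatives, 253 kept their direction and their call (the adjusted p and the fold change together) or, for counts, stayed within 1.5 times. The 253 include values with no call to lose, namely genes never called, counts of 0 and the paralog pairs, whose exact p cannot fall under 0.1. NF2 and SAV1, never called, crossed the adjusted p alone under several. LATS2, STK3 and WWC1 stayed called with a replicate block, a mean-variance trend with robust prior, median-centring, quantile normalization, the filter at a mean of 6, array weights and each array left out. With an ordinary pooled variance and no empirical Bayes, only 1 member probe set (STK3) was called higher, 2 passed the adjusted p, and 0 wider pathway genes were called lower. LATS2 and WWC1 then had adjusted p of 0.0923 and 0.0537. As means over all probe sets of a gene, the changes of LATS2, STK3 and WWC1 were 0.41, 0.53 and 0.30, past the adjusted p and under the fold threshold. WWC1 was 0.52, under the fold threshold, in its brightest probe set without an _s or _x suffix in the name. A fold threshold of 1.2 gave 10 called member probe sets and one of 2 gave 0. Median-centring left 1 wider gene called higher. Leaving out 1 array gave 3 to 4 member probe sets called higher, 6 to 7 past the adjusted p (6 without CRB3-expressing replicate 1, vector control replicate 2 or vector control replicate 3) and 1 to 2 wider genes called higher (1 without CRB3-expressing replicate 1 or vector control replicate 3).

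Values near 0 changed sign. With 1 array left out, YAP1 ranged from -0.054 to 0.0058 (above 0 without vector control replicate 3) and AMOT from -0.10 to 0.039 (above 0 without CRB3-expressing replicate 3 and, at 0.037, without vector control replicate 2). STK4 was -0.035 as the mean over its probe sets. AMOT had no value under the filter on dim probe sets, and SAV1 and AMOT had none without suffixes.

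The labels and methods do not state whether the replicate numbers pair the samples. No sign of pairing was seen: the deviations of same-numbered arrays correlated at -0.085, 0.064 and 0.029, and 2 of 6 arrays correlated best with their own number. With the replicate block, 4 member probe sets were called higher and 8 passed the adjusted p, and that of NF2 was 0.104. NF2 also lost its adjusted p with median-centring (0.0603) and with the pooled variance (0.0973), where SAV1 was at 0.192. As the mean over its probe sets NF2 had a change of 0.18 and did not pass (adjusted p = 0.149 from limma). SAV1 had one of 0.37 and passed (adjusted p = 0.00724). The causes were not tested. Other background corrections and the scan date as a block could not be tried on normalized values. Dim probe sets limit AMOT, for which a change in the transcript may not be detectable.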
